A study of Mus musculus with 6 samples.

Results

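The widest accessible regions of the embryonic mouse posterior second heart field and atria were described, defined as ATAC-seq peaks of 1000 bp or more in either tissue's peak list. The regions were chosen by measured width, the end minus the start, after all lines with identical coordinates had been merged into 1 peak and counted as its summits. By this rule 720 of 44018 peaks in the posterior second heart field (pSHF) list and 861 of 49267 peaks in the atrial (HT) list were wide, 1581 of 93285 in all. That is 1.64% of the pSHF list and 1.75% of the HT list. Because width was the criterion, their widths, summits and enrichment are a description and not evidence. Wide peaks that overlapped between the lists were joined into 1202 loci.

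The tissues were microdissected from wild-type (WT) embryos of the CD1 strain, an outbred mouse stock, at embryonic day 10.0, and the dissected pieces were pooled. Both groups share strain, genotype and age and differ in tissue. Each tissue has 3 samples but 1 deposited peak list, so the spread between samples is unknown and no SD or test between tissues is given. Dissected tissue holds several cell types, and fewer cells with an open site cannot be told apart from less opening per cell.

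ATAC-seq marks DNA that the Tn5 transposase can reach. At an active promoter, nucleosomes are displaced around the transcription start, and the flanking nucleosomes are spaced in an array, so a long accessible stretch often shows several local maxima. Many promoters of broadly expressed genes lie in CpG islands, stretches rich in the CpG dinucleotide that most of the genome lacks. The second heart field supplies cells to the poles of the heart tube, and Hedgehog signaling is known to act in its posterior portion.

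Several of the widest regions lay at gene starts, and the bases before 5 such starts are shown because they illustrate the base composition described further on. Each is the 200 bases before an annotated start on the gene's own strand, 5′ to 3′, from RefSeq on GRCm38.p6, for the widest peaks reported here with an entry in the promoter table. Where a peak held several starts of that table, the one nearest to its strongest summit was taken. Sdccag8, which shares the Cep170 peak, and Zfp524, which shares that of Fiz1, lie nearer to the strongest summit (116 and 157 bp) but have no entry in the table. Capitals mark matches on either strand to GGGCGG (the GC box), CCAAT (the CCAAT box), TATAAA (the TATA box), CCGGAAGT (known for ETS factors), TGACGTCA (the cAMP response element) or to the longer NRF1 and YY1 motifs, which are given by name alone.
Dipk2a: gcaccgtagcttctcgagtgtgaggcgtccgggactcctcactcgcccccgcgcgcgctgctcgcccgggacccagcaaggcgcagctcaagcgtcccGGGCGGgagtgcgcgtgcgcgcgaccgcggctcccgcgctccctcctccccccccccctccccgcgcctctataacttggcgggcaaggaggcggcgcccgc
Ankrd16: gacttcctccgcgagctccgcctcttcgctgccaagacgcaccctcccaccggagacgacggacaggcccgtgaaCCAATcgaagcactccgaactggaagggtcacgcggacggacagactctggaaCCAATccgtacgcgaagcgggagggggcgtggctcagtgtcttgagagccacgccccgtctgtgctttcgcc
Mllt10: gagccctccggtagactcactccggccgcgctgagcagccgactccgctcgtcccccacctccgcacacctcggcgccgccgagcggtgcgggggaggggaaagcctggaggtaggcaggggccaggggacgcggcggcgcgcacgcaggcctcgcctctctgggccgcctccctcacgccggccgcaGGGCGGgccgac
Cep170: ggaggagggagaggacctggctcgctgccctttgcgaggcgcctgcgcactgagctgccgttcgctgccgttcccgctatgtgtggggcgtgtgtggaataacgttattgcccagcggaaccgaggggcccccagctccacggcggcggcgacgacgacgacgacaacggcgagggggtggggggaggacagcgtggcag
Fiz1: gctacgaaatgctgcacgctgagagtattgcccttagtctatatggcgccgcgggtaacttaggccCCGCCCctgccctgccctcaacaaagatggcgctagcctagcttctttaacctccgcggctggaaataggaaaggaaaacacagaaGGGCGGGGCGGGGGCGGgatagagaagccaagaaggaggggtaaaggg
The Dipk2a stretch is chr9:94538082-94538281 on the minus strand and the Ankrd16 stretch chr2:11777553-11777752 on the plus strand. The Mllt10 stretch is chr2:18064385-18064584 on the plus strand, the Cep170 stretch chr1:176813954-176814153 on the minus strand and the Fiz1 stretch chr7:5014729-5014928 on the minus strand. GC content was 76.5% for Dipk2a, 65.0% for Ankrd16, 78.0% for Mllt10, 69.5% for Cep170 and 58.0% for Fiz1. Fiz1 held 4 matches, all to the GC box, while Ankrd16 held 2 CCAAT boxes and no GC box, and Cep170 held none of the 7 motifs. The strongest summit of the peak was 41 bp from the Ankrd16 start and 67 bp from that of Mllt10, but 436 bp from Dipk2a, 645 bp from Fiz1 and 823 bp from Cep170, so the displayed bases of the last 3 are not the most enriched point of their peak. A match is a description of letters and not a binding site.

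Marker genes of the tissues had start peaks more often in one list than in the other. Of 8 cardiomyocyte markers, 7 had a peak at the start in the HT list and 2 in the pSHF list. Of 8 second heart field markers, 7 had one in the pSHF list and 5 in the HT list. Of 5 erythroid markers, none had a start peak in pSHF and 3 had one in HT (Gata1, Klf1 and Hbb-y, with 233, 181 and 369 bp), and the part of blood cells in the differences between the lists was not tested. None of the marker genes of these or the other cell types searched (endothelial, foregut endoderm, epicardial, neural tube, neural crest and somite) lay at a wide peak. Of all coding genes 6.10% did. Many of the markers had no start peak in either list, with 3 of 6 endothelial, 0 of 3 neural crest and 1 of 4 somite markers having one.

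Most wide peaks were only slightly wider than the threshold. In the pSHF list their median width was 1103 bp (quartiles 1045 and 1188 bp), against 251 bp over the whole list, and 352 of 720 were under 1100 bp. In the HT list the median was 1104 bp (1047 and 1199 bp), against 233 bp over the list, and 420 of 861 were under 1100 bp. Only 15 pSHF peaks and 16 HT peaks reached 1500 bp. The wide peaks covered 818.3 kb in pSHF and 983.9 kb in HT. Just inside the threshold, at 1000 bp, were the pSHF peaks at Smad5, Depdc1b and Zfat and the HT peaks at Cdh20, Anapc16/Ascc1 and Mdm2. Just outside, at 999 bp, were those at Scaf8, Add3 and Neto2 in pSHF and at Wdfy2, 8030462N17Rik and Fbxl19 in HT. The partners of these 12 peaks in the other list ranged from 456 bp at 8030462N17Rik to 1363 bp at Scaf8, all above the median of either list.

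The widest peak of the pSHF list, 2681 bp at chr17:39843061-39845741, lay between genes, 107104 bp from the nearest coding gene start. It had 11 summits and a fold enrichment of only 2.66 at the strongest, with 132 reads piled up over a local background of 49.0 reads. The HT list held a 1830 bp peak there with 8 summits, a fold enrichment of 2.59 and a background of 51.9. A second wide pSHF peak, chr17:39847589-39848792, overlapped Rn18s-rs5, annotated as a relative of the 18S ribosomal RNA gene, and had a fold of 2.53. Over all peaks the median background was 1.49 reads in pSHF and 1.29 in HT, so the widths at this location came with high read density in the surroundings. Whether repeated copies of the sequence set that density was not tested.

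At genes, the widest pSHF peaks were at the divergent pair Ankrd16 and Fbh1, an ankyrin repeat protein and an F-box DNA helicase (1702 bp, HT 1627 bp), and at Mllt10, a chromatin-associated partner of the DOT1L methyltransferase (1698 bp, HT 1511 bp). They were followed by Fiz1/Zfp524 (1661 bp, HT 1634 bp), Setd5 (1604 bp, HT 1613 bp) and Kmt2c, a histone H3 lysine methyltransferase (1592 bp, HT 1444 bp). The Setd5 peak also lies at the start of Gt(ROSA)26Sor, the noncoding gene of the ROSA26 locus. Pigp/Ttc3 (1579 bp, HT 1465 bp) and Zbtb20, a zinc finger repressor (1568 bp, HT 1445 bp), were also wide in both lists, whereas Sp4, a relative of the GC box factor Sp1, had a 1587 bp peak in pSHF and 2 peaks in HT, the wider of 816 bp, which together spanned 1617 bp.

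The widest HT peak lay at Dipk2a (1874 bp, pSHF 1231 bp). Other wide peaks at genes were those of Cep170/Sdccag8, which both encode centrosome-associated proteins (1698 bp, pSHF 850 bp), and LOC108167694 (1659 bp, pSHF 1188 bp). The LOC108167694 peak had a fold of 4.62 over a background of 14.6 reads, again well above the list's median background. Esyt2 (1571 bp, pSHF 1019 bp) and Ube2d3, a ubiquitin-conjugating enzyme (1554 bp, pSHF 1360 bp), were also among the 10 widest of the list, as were Fiz1/Zfp524, Ankrd16/Fbh1, Setd5 and the chromosome 17 region.

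Every wide peak of 1 tissue overlapped a peak of the other. All 720 wide pSHF peaks had a partner in the HT list and all 861 wide HT peaks one in the pSHF list, which allows a share without a partner of up to 0.417% and 0.348%. Over whole lists 65.6% of pSHF and 54.5% of HT peaks had a partner, and among peaks of 800 to 999 bp 99.6% and 99.9% did. The partner was itself wide for 379 of 720 pSHF peaks (52.6%, exact Clopper-Pearson 95% interval 48.9 to 56.3) and for 379 of 861 HT peaks (44.0%, 40.7 to 47.4). These intervals, as all below, cover counting error over peaks only. Thus 379 loci were wide in both lists, 341 in pSHF only and 482 in HT only, where "only" refers to the 1000 bp threshold and not to the presence of a peak. The larger number in HT depends on how intervals are divided: with peaks under 100 bp apart joined, 1083 pSHF and 1087 HT peaks were wide, and 52.6% and 52.4% of them had a wide partner.

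**Figure D1:**
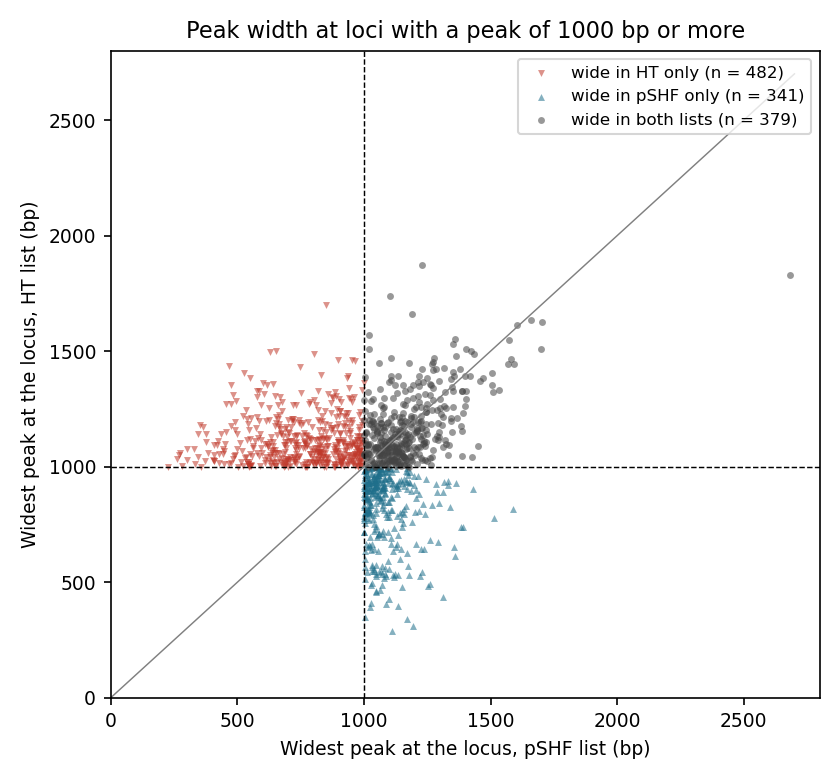
Width of the widest pSHF peak (horizontal axis, bp) and of the widest HT peak (vertical axis, bp) at each of the 1202 loci; the dashed lines mark 1000 bp, the grey line equal widths, and the markers the 3 classes of locus. The 379 loci wide in both lists spread on both sides of the line, and the point at the far right is the chromosome 17 region of 2681 bp in pSHF and 1830 bp in HT.

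At the 379 loci wide in both, widths were close: 223 differed by 100 bp or less, 170 were wider in HT, 207 wider in pSHF and 2 equal. At the 482 loci wide in HT only, the widest pSHF peak had a median of 787.5 bp, 234 loci had one of 800 to 999 bp and 50 had none of 500 bp or more. At the 341 loci wide in pSHF only, the widest HT peak had a median of 872 bp, 226 had one of 800 to 999 bp and 19 had none of 500 bp or more. Of the 1202 loci, 205 were at least 1.5-fold wider in HT and 93 at least 1.5-fold wider in pSHF. Over all 25968 loci with peaks in both lists, 16.6% were wider in HT and 17.1% wider in pSHF by this much. The 1202 loci were chosen by width, so their counts are a description.

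Many one-sided loci differed in how the interval was divided. At 311 of the 482 HT-only loci (64.5%) the pSHF list held several separate peaks within the locus, and at 243 of these the separate peaks together spanned 1000 bp or more. At 104 of the 341 pSHF-only loci (30.5%) the HT list held several, and 75 of these spanned 1000 bp or more. Over all 25968 loci with peaks in both lists, 10.6% held several pSHF peaks and 3.33% several HT peaks, so division was more frequent in the pSHF list in general. Fold enrichment at the strongest summit was higher in HT at 1036 of the 1202 loci, including 305 of the 341 loci wide in pSHF only. The HT list had higher folds in general, with a median of 7.0 against 5.54 in pSHF over peaks of any width with a partner. The share of all 25968 loci with a higher fold in HT was not computed.

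The wide HT peaks with the largest excess over their pSHF partner were at Fkbp4, a co-chaperone of HSP90 (1435 against 466 bp), Memo1 (1405 against 526 bp), Inafm1 (1355 against 477 bp), Dcaf6/Mpc2, the latter a subunit of the mitochondrial pyruvate carrier (1495 against 631 bp), and Cep170/Sdccag8 (1698 against 850 bp). For all of them the pSHF list held several peaks, spanning 1129 bp at Fkbp4, 1073 bp at Memo1, 1315 bp at Inafm1, 1356 bp at Dcaf6/Mpc2 and 1405 bp at Cep170/Sdccag8. The wide pSHF peaks with the largest excess were at Spaca6 (1195 against 311 bp), Mertk, a receptor tyrosine kinase of the TAM family (1313 against 437 bp), the chromosome 17 region, Slc2a4, the insulin-responsive glucose transporter (1171 against 340 bp), and Septin9 (1111 against 289 bp). Septin9 had 1 HT partner of 289 bp, so that its difference was not one of division, whereas 3 HT peaks spanning 1174 bp lay over the Spaca6 interval.

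Wide peaks were composed of several maxima. The median number of summits was 4 in pSHF and 3 in HT, against 1 over each whole list. Peaks with 3 summits numbered 253 in pSHF and 354 in HT, and those with 4 numbered 282 and 262. A single summit was found in 2 wide pSHF peaks, at Mapk8 and Dbf4/Slc25a40, and in 4 wide HT peaks, at Pcmtd1, Nudt4, Ube2z and Rnf138. These 6 peaks were named after their values were seen. After the chromosome 17 region, Mllt10 with 7 summits had most in pSHF and Dipk2a with 7 in HT. Counts of 6 or more were found in 20 wide pSHF peaks, among them Ankrd16/Fbh1, and in 12 wide HT peaks, among them Pigp/Ttc3. Neighbouring summits were a median of 280 bp apart in pSHF (quartiles 202 and 348 bp) and 281 bp in HT (203 and 386 bp). The strongest summit of a peak had a median of 1.91 times the fold of its weakest in pSHF and 2.16 times in HT.

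Around a single gene start the summits were unevenly spaced. In 459 wide pSHF peaks and 538 wide HT peaks that covered starts of 1 coding gene of known strand, summits were most frequent in the 100 bp bins centred on the start (46.8 summits per 100 peaks in pSHF, 45.5 in HT) and at 100 bp upstream (39.4 and 38.8). Frequencies fell to 20.9 and 19.7 at 100 bp downstream and were higher again at 300 bp downstream, with 37.7 in pSHF and 28.3 in HT. Upstream, the bin at 400 bp held 23.7 summits in pSHF and 17.3 in HT, more than those at 300 bp (18.3 and 14.5) and 500 bp (14.4 and 10.8). Where a gene had several starts in the peak, the one nearest to the strongest summit was used, which draws the centre of the profile towards 0.

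**Figure D2:**
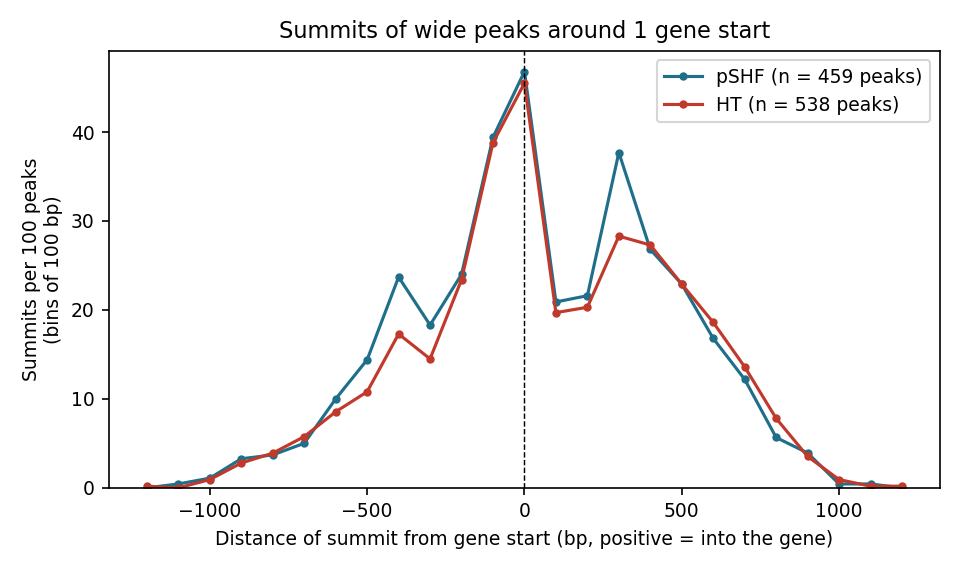
Summits per 100 wide peaks (vertical axis) in 100 bp bins by distance from the gene start (horizontal axis, bp, positive into the gene), for 459 pSHF and 538 HT peaks over the start of 1 coding gene. Both lines peak at the start and again at 300 bp downstream, where pSHF reaches 37.7 and HT 28.3.

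These peaks reached further into the gene than upstream of it. The median extent was 474 bp upstream and 626 bp downstream in pSHF, and 491.5 bp and 640 bp in HT. The downstream side was the longer in 62.1% of wide pSHF peaks (95% interval 57.5 to 66.5) and 61.2% of wide HT peaks (56.9 to 65.3). Among narrower peaks over such starts it was the longer in 51.4% in pSHF (50.3 to 52.5) and 58.2% in HT (57.2 to 59.3), so the intervals of wide and narrower peaks overlapped in HT and not in pSHF. With upstream counted as negative, the strongest summit was at a median of -44 bp from the start in pSHF and -48.5 bp in HT.

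Fold enrichment did not rise further with width among the widest peaks. Median fold enrichment at the strongest summit was 8.12 in wide pSHF peaks and 9.54 in wide HT peaks, against 4.85 and 5.49 over the lists. It was 8.53 and 10.5 in peaks of 800 to 999 bp, and 7.60 and 8.73 in peaks of 1200 bp or more. Pileup at the summit went the other way, from a median of 32 reads at 800 to 999 bp to 38 at 1200 bp or more in pSHF and from 45 to 50 in HT, while the local background, the denominator of the fold, went from 2.86 to 4.04 and from 3.29 to 4.62. Of the 1000 peaks with the highest fold, 36 in pSHF and 3 in HT were wide, and of the 1000 with the highest −log10 q 130 and 99 were, where wide peaks make up 1.64% and 1.75% of the lists. The background is estimated from reads around the summit, and whether the reads of the wide peak itself raised it was not tested.

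**Figure D3:**
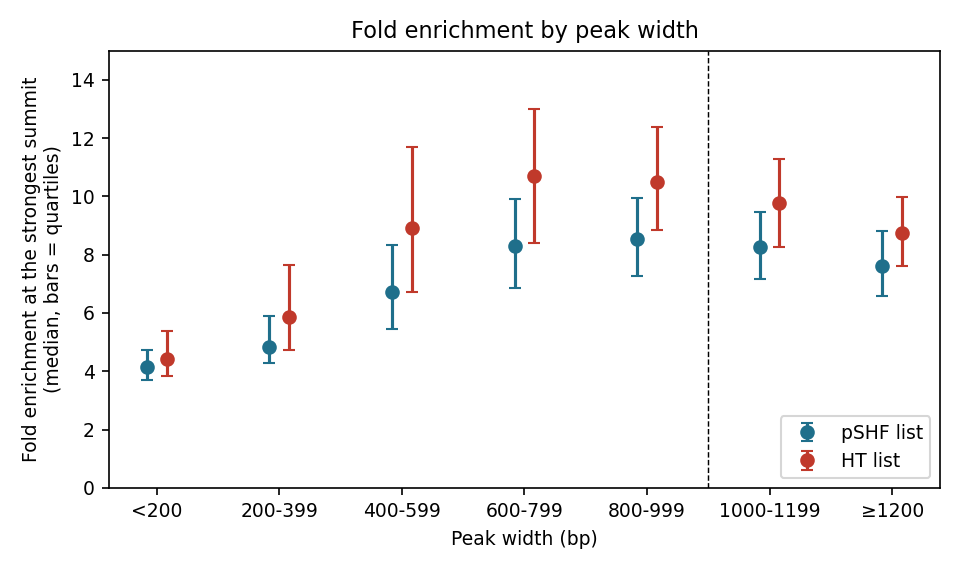
Fold enrichment at the strongest summit (vertical axis; points are medians, bars quartiles) by peak width (horizontal axis, bp) in the pSHF and HT lists, with the 1000 bp threshold as a dashed line. The medians rise up to 800 to 999 bp in pSHF (8.53) and up to 600 to 799 bp in HT (10.7) and are lower in the widest class (7.60 and 8.73).

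The wide pSHF peaks with the highest fold were at AW549877 (13.8), Erp44/Invs (12.8), Focad (12.6), Ebag9 (12.5) and Derl2/Mis12 (12.3). Erp44 and Derl2 encode proteins of the endoplasmic reticulum, Invs a cilium protein and Mis12 a kinetochore protein. In HT they were at Mgat2/Rpl36al (16.1), Gatad2b, a subunit of the NuRD complex (15.8), Larp4b (15.4), Nap1l1, a histone chaperone (15.1), and Zwint, a kinetochore protein (14.96). The Mgat2/Rpl36al interval held a widest pSHF peak of 445 bp, and Nap1l1 was of nearly equal width in both lists (1060 bp in HT, 1059 bp in pSHF). Besides the chromosome 17 region and LOC108167694, the lowest fold in HT was at Bhlhe40, a circadian basic helix-loop-helix repressor, with 4.71. The strongest summit of that peak was 705 bp from the start, which the peak did not cover.

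Nearly all wide peaks lay at a gene start. A peak was placed there when its strongest summit was within 1 kb of a start of a protein-coding gene. This held for 673 of 720 wide pSHF peaks (93.5%, 95% interval 91.4 to 95.2) and 808 of 861 wide HT peaks (93.8%, 92.0 to 95.4), against 39.4% and 32.3% over the lists. Of peaks of 800 to 999 bp, 89.8% in pSHF and 92.9% in HT lay at a start, so the wide peaks continued a relation that already held below the threshold. For 110 pSHF and 135 HT peaks the assignment rests on genes whose strand was not at hand, for which either end counted. Of the others, 15 pSHF and 16 HT peaks lay at the start of a noncoding gene, 19 and 25 inside a coding gene, and 13 and 12 between coding genes.

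Divergent gene pairs, which are transcribed away from each other from neighbouring starts, were found in 85 wide pSHF peaks (11.8%, 9.54 to 14.4) and 115 wide HT peaks (13.4%, 11.2 to 15.8). These shares are of all wide peaks. Among all narrower peaks the shares were 1.45% in pSHF and 1.26% in HT, and among narrower peaks at a gene start 3.77% and 4.04%. Of all peaks of 800 to 999 bp, 9.45% in pSHF and 9.52% in HT held such a pair. The 95% intervals of this class and of wide peaks overlapped in pSHF and not in HT. Genes whose strand was not at hand, such as Sdccag8 and Zfp524, could not be counted in a pair. A wider interval can cover more starts, and the shares were not adjusted for width. Hdlbp and Septin2 start 64 bp apart in a peak of 1535 bp in pSHF and 1331 bp in HT. Atp5j and Gabpa, a mitochondrial ATP synthase subunit and an ETS factor, start 148 bp apart (1457 and 1369 bp), Pigp and Ttc3 29 bp apart and Ankrd16 and Fbh1 168 bp apart. Cep57 and Fam76b start 87 bp apart in a peak of 1511 bp in HT and 1021 bp in pSHF. Several of these pairs were named after their values were seen.

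At the gene level, 802 of 21887 protein-coding genes (3.66%) had a start at a wide pSHF peak, 967 (4.42%) at a wide HT peak and 1336 (6.10%) at either. Of the genes with any start peak, this was 5.99% in pSHF, 7.15% in HT and 9.53% in either list. The genes common to both lists numbered 433, which is 54.0% of the pSHF genes and 44.8% of the HT genes. Cryzl1, Hdlbp, Mllt10 and Sertad2 each held 2 wide peaks in pSHF, and Ccdc9, Hdlbp, Pcmt1 and Sertad2 in HT. The Hdlbp peaks were 1261 and 1535 bp wide in pSHF and 1036 and 1331 bp in HT.

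Gene lists differed widely in how many members lay at a wide peak of either list, compared with 6.10% of all coding genes. The counts were 8 of 24 for heat shock and chaperone genes (33.3%), 7 of 25 for the Bmp and Tgf-beta pathway (28.0%), 8 of 32 for chromatin regulators, 6 of 26 for splicing factors (23.1%) and 3 of 16 for the Notch pathway (18.8%). They were 5 of 85 for cytosolic ribosomal proteins (5.88%), 1 of 19 for cardiac transcription factors, 1 of 17 for the Hedgehog pathway and 0 of 16 for second heart field progenitor genes, 0 of 22 for sarcomere genes, 0 of 39 for Hox genes, 0 of 78 for replication-dependent histones and 0 of 20 for housekeeping genes. Genes that start in 1 peak count separately, and no list was tested as a set. The median widest start peak was 575 bp in pSHF and 577 bp in HT over all genes with one, 784.5 and 753 bp for chaperones, and 212 and 182 bp for Hox genes.

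**Figure D4:**
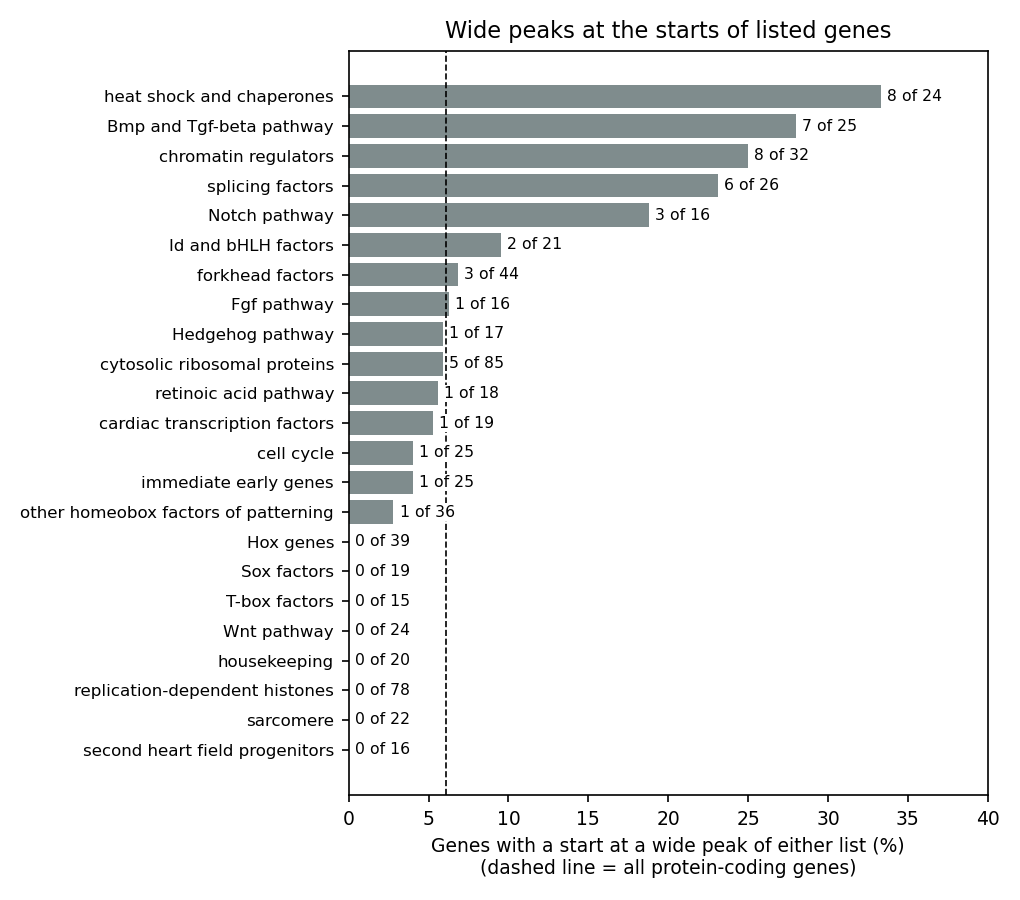
Share of the genes of each list of 15 or more coding genes, cell type markers apart, with a start at a wide peak of either tissue (bars, %), with the number of genes beside each bar and the 6.10% of all protein-coding genes as a dashed line. Chaperones (8 of 24) are at the top, and the 8 lists from Hox genes to second heart field progenitors have none.

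Of the chaperones, Dnaja1, an HSP40 family member, had the widest peaks (1272 bp in pSHF, 1287 bp in HT), in an interval shared with Aptx. Dnajb1, another HSP40 gene, was at 1066 and 1067 bp, and Hsp90b1, the HSP90 of the endoplasmic reticulum, at 1079 and 1028 bp. Hspd1 and Hspe1, the mitochondrial chaperonin and its co-chaperonin, share 1 peak of 1196 bp in HT and 940 bp in pSHF, so that 8 genes correspond to fewer peaks. Among subunits of the cytosolic chaperonin, Cct7 was wide in pSHF (1028 bp, HT 638 bp) and Cct5 in HT (1001 bp, pSHF 546 bp).

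Of the chromatin regulators, both Ezh2, the methyltransferase of Polycomb repressive complex 2 (1436 bp in pSHF, 1486 bp in HT), and Eed, its partner subunit (1017 and 1097 bp), were wide in both tissues. So was Hdac2, a histone deacetylase (1159 and 1101 bp), and Ctcf, the insulator protein, was at 1427 bp in pSHF and 1041 bp in HT. Kdm6a, a demethylase of the mark that Ezh2 sets, had 1070 bp in pSHF and 989 bp in HT, which is a small difference across the threshold. Smarca4, the ATPase of the BAF complex, was likewise at 1046 and 950 bp. Asxl1 was the opposite, with 1207 bp in HT and 716 bp in pSHF.

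Of the splicing factors, Hnrnpk (1384 bp in pSHF, 1176 bp in HT), Hnrnpa1 (1266 and 1353 bp) and Ddx5, an RNA helicase (1119 and 1220 bp), were wide in both. Srsf7 and Hnrnpa2b1 passed the threshold in pSHF only and Srsf2 in HT only, with partner widths between 913 and 986 bp. Of the ribosomal protein genes, the Rpl7 interval was the widest, at 1298 bp in pSHF and 844 bp in HT.

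Of the signaling lists, Bmp and Tgf-beta had 7 of 25 members at wide peaks (28.0%), Notch 3 of 16 (18.8%) and Wnt 0 of 24. The share of all coding genes was 6.10%. Near it were the Hedgehog list with 1 of 17 (5.88%), Fgf with 1 of 16 (6.25%) and retinoic acid with 1 of 18 (5.56%). In lists this small, 1 gene changes the share by several percentage points. In the Bmp and Tgf-beta list, the transducer Smad2 (1368 bp in pSHF, 1209 bp in HT) and the inhibitor Smad7 (1226 and 1169 bp) were wide in both. The receptors Bmpr2 (1207 and 866 bp) and Tgfbr1 (1151 and 804 bp) were wide in pSHF, and Bmpr1a in HT (1080 bp, pSHF 974 bp). The strongest summit of the wide Bmpr2 peak was 819 bp from the start, which the peak did not cover. Smad5 was at the threshold in pSHF and Skil, a SMAD co-repressor, was at 1064 bp in HT. In the Notch list, the ligand Jag1 had 1049 bp in pSHF and 528 bp in HT, and the target Hey1 had 1109 and 904 bp. The coactivator Maml1 had 1046 bp in HT and 585 bp in pSHF.

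In the Hedgehog list the only member at a wide peak was Cdon, a co-receptor for Hedgehog ligands. Its peak at chr9:35421033-35422123 had a width of 1091 bp, 3 summits and a fold of 8.31 in pSHF, and its HT partner had 996 bp and a fold of 9.03, so the lists differed little. The peak lies at the 5′ end of the gene model, while the only Cdon start of the promoter table is further into the gene. Smo, the signal transducer of the pathway, had start peaks of 617 bp in pSHF and 919 bp in HT, and Gas1, another co-receptor, of 720 and 729 bp. The receptor Ptch1 had 469 and 293 bp, Gli3 559 and 421 bp, and Gli1 no start peak in pSHF and 253 bp in HT.

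Genes that mark the tissues had narrower start peaks at the median than all genes with one (575 bp in pSHF, 577 bp in HT). Medians were 507.5 and 389 bp for second heart field progenitor genes and 454 and 333 bp for sarcomere genes. Those of cardiac transcription factors were 511 and 476 bp. The widest of the second heart field list were Aldh1a2, the retinoic acid synthesis enzyme (752 bp in pSHF, 306 bp in HT), and Isl1, the LIM homeodomain factor of the field (646 and 740 bp). The widest of the sarcomere list were Myom1 (923 and 794 bp) and Myl4, the atrial essential light chain (907 and 882 bp). Tnnt2, the cardiac troponin T gene, had 127 bp in pSHF and 522 bp in HT. The only cardiac transcription factor at a wide peak was Mef2a, with 1172 bp in HT and 925 bp in pSHF. This 1 of 19 (5.26%) was near the 6.10% of all coding genes. Rdh10, which converts retinol to retinal, was the retinoic acid list's member at a wide peak, but its interval is that of Rpl7.

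Other transcription factors at wide peaks included 3 of 44 forkhead genes, all past the threshold in HT only. They were Foxo1 (1220 bp, pSHF 523 bp), Foxj3 (1135 bp, pSHF 681 bp) and Foxd2 (1015 bp, pSHF 474 bp). Their share of 6.82% was near the 6.10% of all coding genes. Pknox1, a TALE homeodomain factor, was wide in both lists (1291 bp in pSHF, 1191 bp in HT), and Max, the partner of Myc, in pSHF (1185 bp, HT 895 bp). Among immediate early genes Dusp1, a MAP kinase phosphatase, was wide in both (1078 bp in pSHF, 1296 bp in HT). E2f1, a cell cycle factor, was wide in HT (1057 bp, pSHF 681 bp), as was Spred1, an inhibitor of Ras signaling, of the Fgf list (1145 bp, pSHF 765 bp). Members at wide peaks numbered 1 of 36 for other homeobox factors, 2 of 21 for Id and basic helix-loop-helix factors and 1 of 25 for immediate early genes. They numbered 1 of 25 for cell cycle genes, 0 of 19 for Sox factors and 0 of 15 for T-box factors.

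The start sequences under wide peaks were rich in GC and CpG. In the 300 bases around each start, from 250 before to 50 after, median GC content was 67.3% at 1246 starts in a wide peak of either list, 61.7% at 10311 starts in a narrower peak and 48.3% at 9706 starts in none. The CpG ratio, observed over expected from the base content, had medians of 0.870, 0.773 and 0.216, and exceeded 0.6 at 92.1%, 75.8% and 12.0% of starts. At starts in peaks of 800 to 999 bp it exceeded 0.6 at 90.7%, close to the share in wide peaks. Several starts can belong to 1 gene and share bases.

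**Figure D5:**
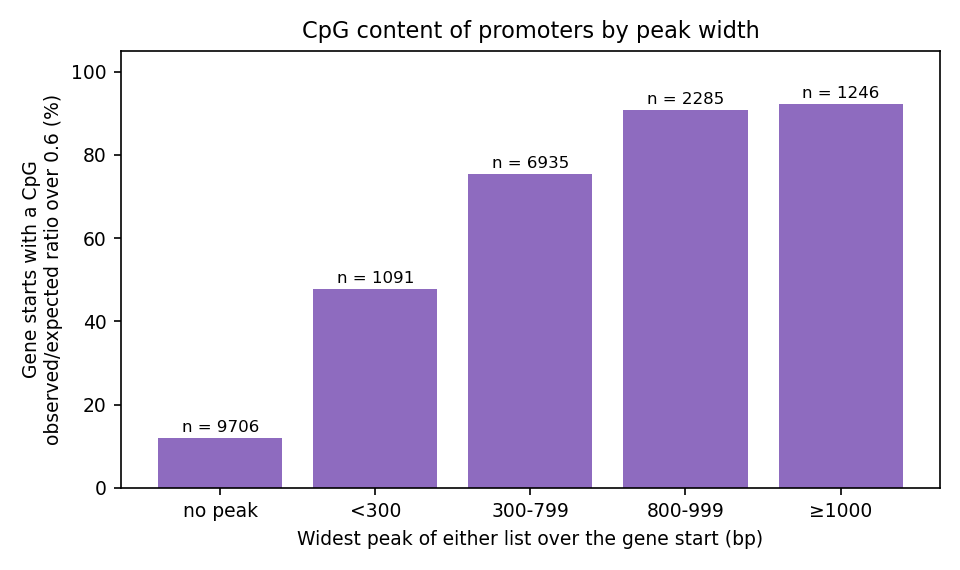
Share of annotated gene starts with a CpG ratio above 0.6 in the 300 bases around the start (vertical axis, %) by the width of the widest peak of either list over the start (horizontal axis, bp), with the number of starts above each bar. The share goes from 12.0% without a peak to 90.7% at 800 to 999 bp and 92.1% at 1000 bp or more.

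Of the motifs, GGGCGG was found at 81.1% of starts in a wide peak (95% interval 78.8 to 83.2), 68.7% in narrower peaks (67.8 to 69.6) and 46.2% of all 21263 starts. TATAAA was found at 3.85% (2.85 to 5.08), 6.15% (5.69 to 6.63) and 12.6%. CCAAT was found at 37.2%, 39.2% and 38.2%, but at 32.3% (29.5 to 35.1) of starts whose widest peak was under 300 bp. CCGGAAGT was at 6.82%, 8.95% and 5.15%, TGACGTCA at 3.13%, 3.63% and 2.23%, and the NRF1 motif at 3.13%, 2.20% and 1.33%. The YY1 motif was at 2.25% (1.5 to 3.23), 1.5% (1.28 to 1.76) and 0.889%, with overlapping intervals in wide and narrower peaks. At starts whose widest peak was 800 to 999 bp, GGGCGG was at 76.9% (75.1 to 78.6), TATAAA at 3.41% (2.71 to 4.24) and the NRF1 motif at 3.15%. These 3 shares were closer to those in wide peaks than the shares over all narrower peaks were. The shares of CCAAT (39.6%), CCGGAAGT (9.41%), TGACGTCA (4.29%) and the YY1 motif (1.31%) in this class went the other way. They were further from those in wide peaks than the shares over all narrower peaks were. GGGCGG is itself made of G and C, and the shares were not adjusted for base content.

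The wide peaks away from coding starts included clusters of tRNA genes. All peaks in this and the next paragraph were singled out after their values were seen, apart from the peak near Shcbp1. A peak over 4 tRNA genes at chr3:19627837-19629119 (n-TAagc14, n-TRacg3, n-TYgta1 and n-TYgta2) was 1283 bp wide in pSHF and 1424 bp in HT. A peak over n-TRcct3, n-TRcct5 and n-TRtcg4 at chr11:115412713-115414019 was 1307 bp in pSHF and 1182 bp in HT. The peak at Snhg8, a host gene of the small nucleolar RNA Snora24, was 1173 bp in pSHF and 1004 bp in HT. The peak at Mirlet7i, a let-7 family miRNA gene known for its role in developmental timing, was 1062 bp in HT and 826 bp in pSHF.

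Between coding genes, the widest peak apart from the chromosome 17 region lay 58038 bp from Shcbp1, with 1572 bp in pSHF and 1548 bp in HT. Its fold of 8.77 in pSHF and 9.96 in HT was above the median of wide peaks in both lists, unlike the chromosome 17 region. In HT a 1001 bp peak at chr5:77130083-77131083 lay 15690 bp from the start of Hopx, a homeodomain-only protein expressed in the developing heart, where the pSHF partner was 226 bp. In pSHF a 1141 bp peak at chr10:120552289-120553429 lay 76453 bp from the start of Hmga2, an architectural chromatin factor, with an HT partner of 600 bp. A nearest gene states position only, and which gene such an interval acts on was not tested. A peak at chr2:98666182-98667380 (1199 bp, HT 1146 bp) lay 2349017 bp from the nearest coding start and had a background of 10.5 reads in pSHF and 10.9 in HT.

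Along the genome the wide peaks were scattered. Neighbouring wide peaks were a median of 2120 kb apart in pSHF and 1920 kb in HT, with 3 and 1 pairs under 10 kb apart. Per chromosome, wide peaks made up between 0.760% (X, 8 of 1052 peaks, 95% interval 0.329 to 1.49) and 2.21% (chromosome 3, 52 of 2357) of the pSHF list. In HT the shares went from 1.21% (chromosome 15, 24 of 1989) to 2.23% (chromosome 1, 74 of 3324), and that on X was 1.23% (15 of 1216, 0.692 to 2.03).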

How the data were processed

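Open chromatin was measured by ATAC-seq in 3 pSHF and 3 HT samples. Per the submitters' processing notes, Bowtie2 2.3.2, SAMtools 1.5, Picard and MACS2 2.1.1 were used with build mm10 (roles, parameters and any pooling: not given in the sources used here). For each summit, the lists the authors deposited hold a score, fold enrichment (a ratio to the local background), −log10 p-value, −log10 q-value and summit position. Per-sample read totals were not analysed here. Pileup and local background at the strongest summit of each peak were recovered from the deposited fold and −log10 p-value. Fold was taken as pileup plus 1 over background plus 1 (100% of peaks matched within 0.0001). The lowest background, which stands for overall coverage, was 0.857 reads in pSHF and 0.824 in HT.

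Lines were merged into peaks, and partners were the other list's peak with most overlap, of at least 1 bp (Python 3.11.15, pandas 2.3.3, scipy 1.17.1). A caller of this kind sets peak edges by its q threshold, so a dip in signal can divide an interval, and deeper data can join it. Genes and starts came from RefSeq tables of GRCm38.p6, whose chromosomes match mm10. Starts with strand were at hand for 17492 of 21887 coding genes (79.9%), and the 5′ end of the gene model was added to them; for the others either end counted. Exons and introns were not separated.

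The members, gene lists and naming rule were chosen with earlier results of these data known. Named were genes at the 10 widest peaks, the 5 with the largest excess over the partner, the 3 with most summits, the 5 of highest and 3 of lowest fold in each list, genes with several wide peaks, up to 4 members of each gene list by width, and the neighbours of the threshold. One of the 10 widest HT peaks is not reported here. Members of gene lists beyond these were named after their values were seen. No test was run, as there was 1 list per tissue. The merging and overlap code was tested on simulated peaks.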

Additional observations from a re-analysis of the deposited data

How the results depend on the processing

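Of 41 alternative settings, 19 kept the value within its limits and 22 moved it. Directions were not compared between settings. At 800 bp the wide peaks numbered 2541 in pSHF and 2646 in HT, at 1500 bp 15 and 16. When peaks under 100 bp apart were joined, there were 1083 in pSHF and 1087 in HT, so the difference between the lists in number was nearly absent, and 52.4% of the HT peaks had a wide partner. A partner overlapping 50% of both peaks was found for 94.3% of wide pSHF and 89.3% of wide HT peaks. At a −log10 q of 5 or more in both lists 99.5% of wide HT peaks had a partner. A partner of 800 bp or more was found for 84.0% in pSHF and 71.1% in HT.

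The share at a coding gene start was 91.2% in pSHF and 91.9% in HT when the peak had to cover the start, 95.7% in both with all annotated genes, and 90.8% in pSHF at 800 bp. With genes of known strand only it was 78.2% in both, and with either end of every gene 82.9% in pSHF and 84.0% in HT. The median number of summits in pSHF was 3 with summits at a −log10 q of 5 or more and 3 at 800 bp. Settings on strand, gene model ends and starts in wide peaks of both lists were added after seeing the data. No paired analysis was possible because each tissue has 1 list without replicate values. Precision is limited by this, and read depth per sample is unknown.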
